A study of Mus musculus with 12 samples.

Results

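The collagen chain genes are the genes for the alpha chains that form collagens of every type, and they were taken as all genes whose array name has the form Col, number, a, number. This rule found 44 genes among the 37008 on the array, measured by 91 of its 56605 probes. They were divided into 11 fibrillar chains, 6 chains of type IV and 27 chains of other types. The 12 samples were RNA of orthotopic KP tumours, which are pancreatic tumours grown in the pancreas, in female C57BL/6 mice aged 8 weeks, and all of them shared tumour, strain, sex and age. The 6 vehicle samples came from mice given the carrier by gavage, and the 6 FAKi samples from mice given a focal adhesion kinase inhibitor by gavage at 50 mg/kg, both for 14 days. Each sample is called a tumour here, since the labels do not say whether each was a separate mouse. The labels do not say whether the KP cells were 1 line or clone, nor what the vehicle was, and each array held whole tumour tissue, so fewer cells of a type and less RNA per cell cannot be told apart.

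Collagens are built from 3 alpha chains wound into a triple helix, which requires a glycine at regular steps, 1 in each 3 residues. Fibrillar collagens such as types I and III form the fibres of the dense stroma for which pancreatic tumours are known, type IV forms the sheet of basement membranes, and the other types link, coat or anchor these structures. Focal adhesion kinase acts downstream of integrins, some of which bind collagen, and the study's title asks about its inhibition in pancreatic cancer.

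A glycine repeat could be looked for in the array probes themselves. A probe of 60 bases that has a glycine codon, GGN, at every 9th base over its whole length holds the letters that such a helix needs, though whether a probe lies in coding sequence was not looked up. Such a repeat was present in 4 of the 91 collagen probes (4.40%) and in 9 of all 56605 probes (0.0159%), 5 of which are for other genes. The 4 are shown because the results for their genes are given further on, and because 1 of them was the only kept collagen probe whose treatment groups did not overlap. Capitals mark the glycine codons, and positions are those of the array design in mm9, on the strand given.
Col5a3, chr9:20590066-20590795, minus strand: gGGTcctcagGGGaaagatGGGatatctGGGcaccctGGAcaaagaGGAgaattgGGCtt
Col11a2, chr17:34189287-34189453, plus strand: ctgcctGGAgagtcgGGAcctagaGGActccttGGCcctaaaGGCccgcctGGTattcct
Col15a1, chr4:47283786-47283845, plus strand: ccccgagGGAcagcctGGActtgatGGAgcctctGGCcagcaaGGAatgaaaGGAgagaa
Col6a3, chr1:92689602-92690594, minus strand: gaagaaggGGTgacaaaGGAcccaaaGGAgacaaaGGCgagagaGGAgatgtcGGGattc
The spans of the Col5a3, Col11a2 and Col6a3 probes, 730, 167 and 993 bases of genome for 60 bases of probe, are longer than the probes. The Col15a1 probe covers 60 unbroken bases. The Col11a2 probe is the one used for its gene, and the other 3 are second probes of theirs.

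Signals are given as log2 values relative to each array's 75th percentile, so a value of 0 is a probe at that percentile, and a difference of 1 is a doubling. Values of different genes come from different probes and are not compared with each other. The 12 arrays had 66.6% to 76.1% of spots well above background, with no saturated spot, and their 75th percentiles ran from 11.82 in vehicle 6 to 13.88 in vehicle 1 on the log2 scale. Vehicle 5, vehicle 6 and FAKi 6 stood apart from the others over all genes. Their median correlation with the other arrays was 0.930, 0.920 and 0.938, and the lowest among the other 9 was 0.950. Markers of the labelled tissue were present, with Krt8, Krt18 and Krt19 of ductal epithelium well above background on all 12 arrays. Over the 27351 genes tested, 0 were called with limma at an adjusted p of 0.05, 1311 had an unadjusted p under 0.05, and limma was the only tool run.

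Of the 44 collagen genes, 37 passed the filter that a probe be well above background on at least 6 of 12 arrays. All 11 fibrillar genes passed, as did 3 of 6 type IV genes (Col4a1, Col4a2 and Col4a5) and 23 of 27 other genes. The 7 that did not pass were Col4a3, Col4a4, Col4a6, Col6a5, Col6a6, Col10a1 and Col25a1. The best detected probe of Col4a6, Col6a5 and Col25a1 was well above background on 0 of 12 arrays. Col10a1, a chain of hypertrophic cartilage, reached that level in 4 vehicle tumours of 6 but in 1 of the 6 given FAKi. Col4a3 and Col4a4, which form the type IV network of kidney glomeruli, were above it in 3 and 1 of the 12 tumours, and Col6a6 in 3, all of them FAKi. These probes were dim, with means of -5.04 in vehicle and -7.66 in FAKi for Col10a1, and -7.09 and -6.49 for Col6a6. The share of all genes with such gaps in detection was not computed, so the counts are not read as a treatment difference.

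FAK inhibition gave no collagen call. Of the 37 measured genes, 0 were called, against 0 of all genes (0%), and 1 had an unadjusted p under 0.05 (2.70%), against 4.79% of all genes. Leaving out 1 array gave 0 to 3 such collagens. The 3 came without vehicle 6, where 13.8% of all genes had such a p. The gene over all 12 arrays, Col8a2, was lower with FAKi, as were 2.08% of all genes at this p, and 0 collagens were higher at this p, against 2.72% of all genes. Differences were above 0 for 20 of the 37 and below 0 for 17, against 60.5% and 39.5% of all genes. The median difference was 0.02 over the collagens and 0.08 over all genes. By class it was -0.03 over 11 fibrillar, 0.27 over 3 type IV and 0.06 over 23 other genes. In none of the 37 did the groups fail to overlap, a pattern that 0.239% of all genes showed. A p that misses the threshold does not show that the groups were alike, and the intervals of single genes allow changes in either direction.

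**Figure D1:**
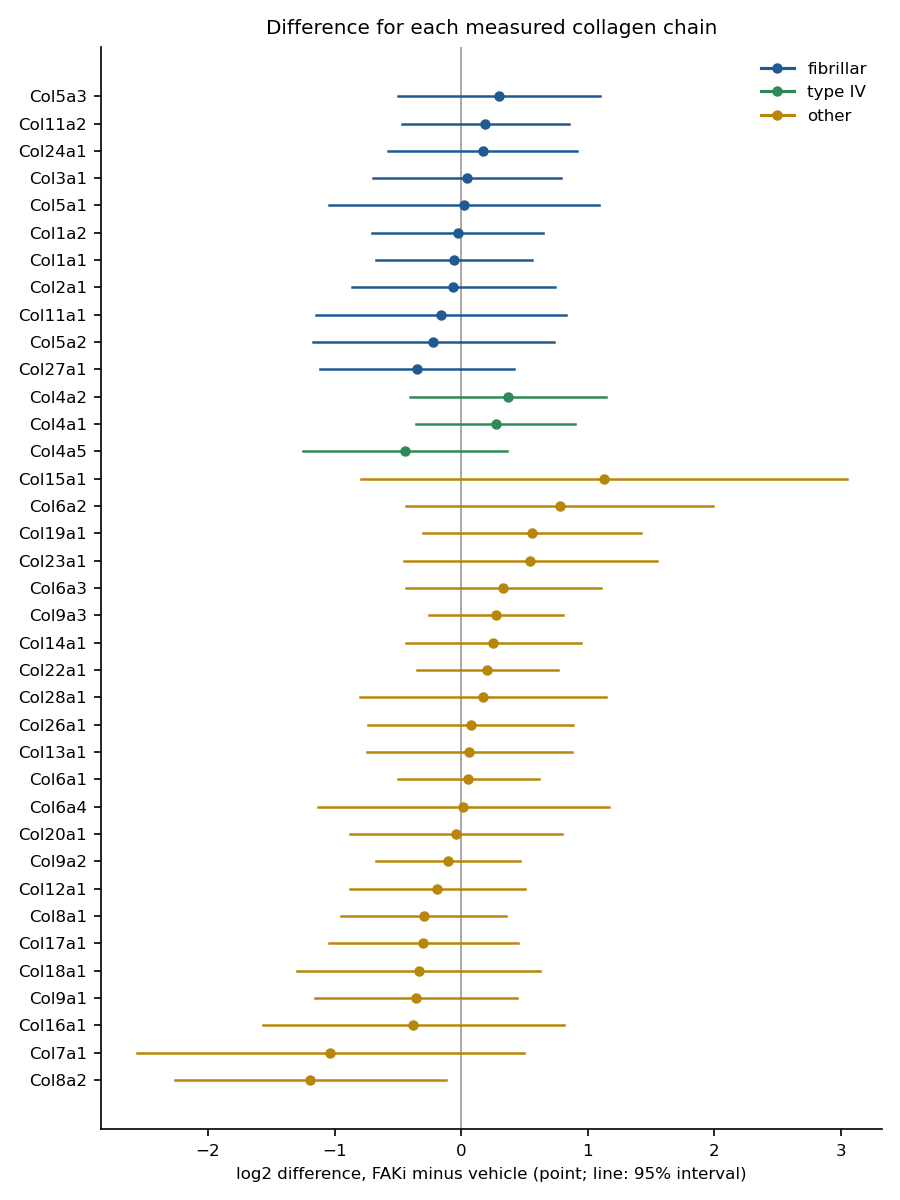
Log2 difference of FAKi minus vehicle (horizontal axis) for the 37 measured collagen chains, ordered within class; points are limma estimates and lines their 95% intervals, from 6 tumours a group. Every interval but that of Col8a2 includes 0.

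The fibrillar chains of types I and III, the main components of stromal fibres, had differences close to 0, each smaller than its standard error. Col1a1, the alpha 1 chain of type I collagen (probe at chr11:94813075-94813134, mm9), ranged from 4.41 through a median of 5.59 to 6.16 in vehicle and from 5.23 through 5.41 to 5.75 in FAKi tumours. The FAKi tumours lay inside the vehicle range, in which vehicle 1 was lowest and vehicles 5 and 6 highest. The difference was -0.06 (SE 0.29), a FAKi to vehicle ratio with a 95% interval of 0.627 to 1.47 and an adjusted p of 0.999 in limma.

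Its partner chain Col1a2 also had vehicle 1 lowest and vehicle 6 highest. It ranged from 4.78 through 5.83 to 7.0 in vehicle and from 5.51 through 5.80 to 6.15 in FAKi tumours, with a difference of -0.03 (SE 0.31) and an interval of 0.614 to 1.57 in the ratio. Col3a1, the chain of type III collagen, ranged from 4.45 through 5.51 to 6.90 in vehicle and from 5.50 through 5.53 to 6.13 in FAKi tumours. Its difference was 0.05 (SE 0.34), with vehicle 1 again lowest and vehicle 6 highest.

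The vehicle tumours were more spread than the FAKi tumours for these 3 genes. The SD over 6 tumours was 0.64 in vehicle and 0.23 in FAKi for Col1a1, 0.74 and 0.23 for Col1a2, and 0.82 and 0.28 for Col3a1. The vehicle SD was the larger in 24 of 37 collagens, and in 8 of 11 fibrillar ones, while it was the larger in 72.2% of all genes. The difference in spread was not tested.

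The place of vehicles 1 and 6 in these 3 genes depends on the scaling, since each value is the log2 signal minus the array's 75th percentile, and these arrays had the highest and the lowest percentile. Before that subtraction, the log2 signal of Col1a2 was 18.66 in vehicle 1 and 18.82 in vehicle 6, and that of Col3a1 was 18.33 and 18.72. For Col1a1 it was 18.29 in vehicle 1 and 17.98 in vehicle 6, the reverse of the scaled order. The SD over 12 arrays was 0.52 scaled and 0.19 unscaled for Col1a2, 0.59 and 0.27 for Col3a1, and 0.46 and 0.35 for Col1a1, and that of the percentile itself was 0.50. For Col4a1 and Col4a2 the scaled SD was the smaller instead (0.49 against 0.71, and 0.65 against 0.91). With quantile normalisation in place of the percentile, the SD was 0.24 for Col1a1, 0.11 for Col1a2 and 0.24 for Col3a1. Col1a1 then ranged from 18.34 to 18.97 in vehicle and from 18.14 to 18.92 in FAKi tumours. Col1a2 ranged from 18.80 to 19.06 in vehicle and from 18.75 to 19.07 in FAKi tumours. For both, the FAKi range was the wider. For Col3a1 the vehicle range was the wider, 18.37 to 19.01 against 18.41 to 18.99. Quantile normalisation gives every array the same set of values, so probes as far above the 75th percentile as these have little room to differ. The small SDs and similar ranges it gave for these 3 genes therefore cannot measure the spread between tumours. Whether the order of vehicle tumours in these genes comes from the tumours or from the arrays was not tested.

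Among the minor fibrillar chains, those of type V take part in setting fibre diameter. Col5a1 had the largest SD over 12 arrays of the 11 fibrillar genes, 0.90, which is above that of 81.8% of all genes. It ranged from 2.50 through 3.10 to 5.27 in vehicle and from 2.82 through 3.68 to 4.42 in FAKi tumours, with vehicles 5 and 6 far above the other 4 and a difference of 0.02 (SE 0.50). Col5a3 ranged from 0.18 through 0.80 to 2.26 in vehicle and from 0.57 through 1.37 to 2.21 in FAKi tumours. Its difference was 0.30 (SE 0.37), and its second probe, the one printed above, gave 0.54.

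Types XI and XXVII are known from cartilage. Col11a2, measured with its printed probe, ranged from -4.22 through -3.71 to -2.27 in vehicle and from -3.71 through -3.31 to -3.16 in FAKi tumours, with a difference of 0.19 (SE 0.31). With this probe FAKi 2 to 6 lay above the vehicle mean, while vehicle 6 was highest of all. The second Col11a2 probe, well above background on all 12 arrays, gave -0.37 instead. Col27a1 ranged from -0.19 through 1.17 to 1.54 in vehicle and from -0.23 through 0.68 to 1.47 in FAKi tumours. Its difference of -0.35 (SE 0.36) was the lowest of the fibrillar genes, and vehicle 5, FAKi 2 and FAKi 6 were low. The other 4 fibrillar genes had differences of -0.06 (Col2a1), -0.16 (Col11a1), 0.17 (Col24a1) and -0.22 (Col5a2). Second kept probes gave 0.55 for Col5a2, 0.51 for Col24a1 and -0.38 for Col27a1.

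**Figure D2:**
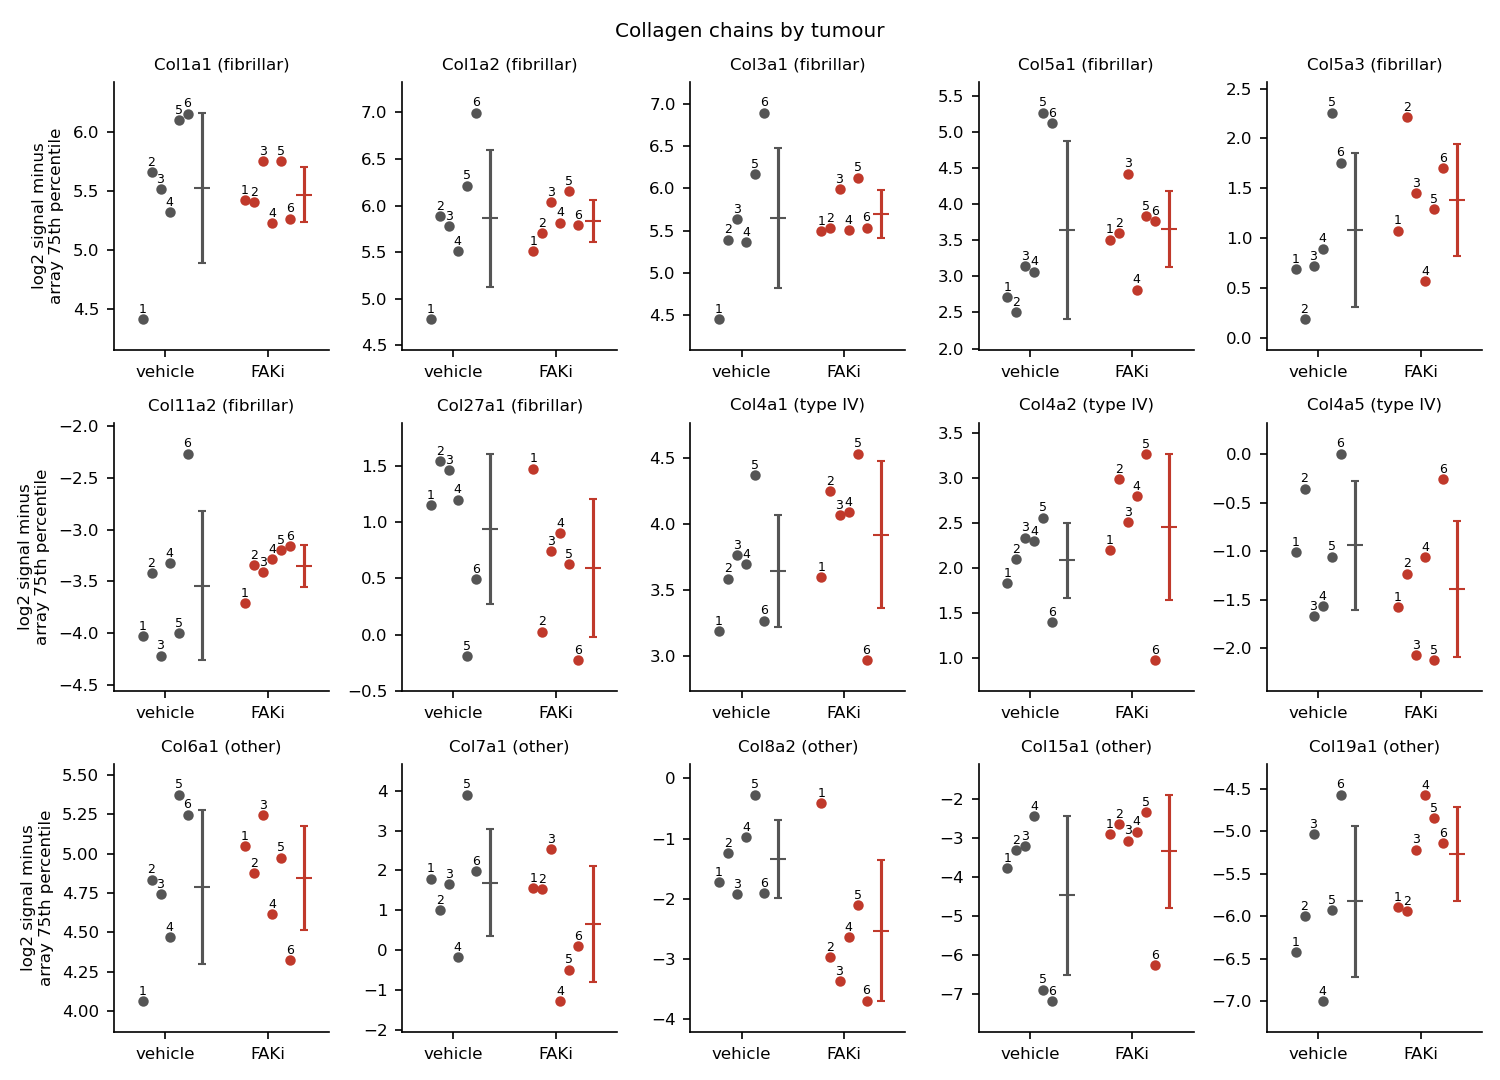
Log2 signal minus the array's 75th percentile (vertical axes, scaled separately) in each tumour for 15 collagen chains; numbers are replicates, and bars show the mean and SD of 6 tumours. The groups overlap in every panel, and vehicle 1, 5 and 6 lie at the edges of the vehicle group for several fibrillar chains.

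Type IV collagen of most basement membranes is made of Col4a1 and Col4a2. Col4a1 (probe at chr8:11199009-11199068, mm9) ranged from 3.19 through 3.64 to 4.37 in vehicle and from 2.97 through 4.08 to 4.53 in FAKi tumours. FAKi 2 to 5 were high, FAKi 6 was the lowest of all 12, and the difference was 0.27 (SE 0.29). Col4a2 ranged from 1.41 through 2.20 to 2.56 in vehicle and from 0.98 through 2.66 to 3.27 in FAKi tumours. FAKi 6 was again lowest and FAKi 5 highest, and the difference was 0.37 (SE 0.36), with adjusted p of 0.999 for both genes in limma.

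Both were higher in the FAKi array within slide 1 (0.47 and 0.82) and slide 4 (0.17 and 0.45), the slides that held both groups. Each of these slides has 1 FAKi array and 2 vehicle arrays, among them vehicle 5 on slide 1 and vehicle 6 on slide 4, so within-slide values have no test. Col4a5, an X-linked chain of other type IV networks (chrX:138123547-138123606), was lower instead. It ranged from -1.67 through -1.03 to 0.01 in vehicle and from -2.13 through -1.41 to -0.25 in FAKi tumours, a difference of -0.45 (SE 0.37). The within-slide values for Col4a5 were -0.76 and -1.41.

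Among the other types, Col8a2 was the member with an unadjusted p under 0.05. It encodes a chain of type VIII, a short-chain network collagen of vessel walls and of the membrane under corneal endothelium. It ranged from -1.93 through -1.48 to -0.27 in vehicle and from -3.70 through -2.80 to -0.41 in FAKi tumours. FAKi 1 was far above the other 5 FAKi tumours, all of which lay below every vehicle value. The difference was -1.19 (SE 0.50, 95% interval of the ratio 0.208 to 0.920), with an adjusted p of 0.999 in limma. With the slide as a fixed block the difference was 0.07, but that fit compares the groups only within slides 1 and 4. Within those slides the difference was -1.01 and 1.16. Its partner Col8a1 differed by -0.30 (SE 0.30). Of 6 endothelial markers, 6 had a lower FAKi mean (median -0.33), with none called, and their part in the Col8a2 values was not tested.

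Type VI collagen forms beaded filaments close to cells, and its 4 measured genes were all above 0, with no call. Col6a1 (chr10:76171538-76171597) had one of the smallest spreads of the class, an SD over 12 arrays of 0.40. It ranged from 4.06 through 4.79 to 5.38 in vehicle and from 4.32 through 4.93 to 5.25 in FAKi tumours, and its difference was 0.06 (SE 0.26). Col6a3 differed by 0.33 (SE 0.36), Col6a4 by 0.02 and Col6a2 by 0.78 (SE 0.56).

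The value of Col6a2 depends on the probe. With the probe used, the vehicle tumours ranged from 1.69 through 2.51 to 3.10, and FAKi 1 to 5 all lay at 3.42 or above, but FAKi 6 lay at 0.33. The other Col6a2 probes, well above background on all 12 arrays too, gave differences of -0.02 and -0.16 and did not place FAKi 1 to 5 above vehicle. Col6a2 was singled out after its values were seen.

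Col7a1, which forms the anchoring fibrils under epithelia, spanned 36.6-fold over 12 tumours. It ranged from -0.18 through 1.72 to 3.90 in vehicle and from -1.29 through 0.82 to 2.54 in FAKi tumours, with a difference of -1.03 (SE 0.71). FAKi 4 and 5 and vehicle 4 were low and vehicle 5 high. Within slide 1, which holds vehicle 5 and FAKi 5, the difference was -3.27, and within slide 4 it was 0.07. Col19a1, a fibril-associated chain, ranged from -7.0 through -5.97 to -4.57 in vehicle and from -5.94 through -5.18 to -4.57 in FAKi tumours, with a difference of 0.56 (SE 0.40). Its probe was well above background in 4 vehicle tumours and all 6 given FAKi. The second kept Col19a1 probe, well above background on 9 of 12 arrays, gave a difference of -0.003. With the slide as a fixed block, which compares the groups only within slides 1 and 4, the Col19a1 difference was 0.012. Within those slides it was 0.63 and -0.61.

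Col15a1, a basement membrane collagen of the multiplexin group, varied more than any other collagen. Its SD over 12 arrays was 1.78, above that of 98.0% of genes. The probe used (chr4:47325273-47325332) ranged from -7.18 through -3.55 to -2.45 in vehicle and from -6.26 through -2.87 to -2.34 in FAKi tumours. Vehicle 5, vehicle 6 and FAKi 6 were low, and not well above background, while the other 9 lay between -3.77 and -2.34. The difference was 1.13 (SE 0.89).

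The second Col15a1 probe, the printed one with the glycine repeat, gave another order. It ranged from -6.02 through -5.42 to -5.08 in vehicle and from -5.00 through -4.76 to -4.10 in FAKi tumours, so all 6 FAKi tumours lay above all 6 vehicle tumours. FAKi 6, the lowest FAKi tumour with the first probe, was the highest with this one. The second probe was dim, and well above background in 4 vehicle tumours and all 6 given FAKi. When each kept probe was tested separately, an alternative chosen after seeing the data, the difference was 0.84 (SE 0.24) with an adjusted p of 0.900 in limma. It was 1 of 65 collagen probes without overlap, against 0.231% of all kept probes, and 4 of the 65 had an unadjusted p under 0.05, against 4.84%. No probe was called over all 40457.

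Probes of 1 gene did not always give the same sign. Of 21 collagen genes with at least 2 kept probes, 9 had all probes on the same side of 0. The other 12 did not, Col1a1 among them, though differences near 0 can fall on either side. In 9 genes the probes differed by over 0.5. The share over all genes was not computed. The 3 kept Col1a1 probes followed each other, with differences of -0.06, 0.06 and -0.02. The Col1a2 probes did not. The one used lies nearest the 3′ end (chr6:4490619-4490678, plus strand), and vehicle 6 was its highest tumour. The probes at chr6:4479333-4479392 and chr6:4464456-4464515 lie further 5′ and put vehicle 6 and FAKi 6 lowest. Both were much dimmer than the one used, with ranges over vehicle of -4.14 to -0.95 and -7.26 to -3.09. The last was well above background on 10 of 12 arrays, and read -7.26 in vehicle 6 and -8.18 in FAKi 6.

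**Figure D3:**
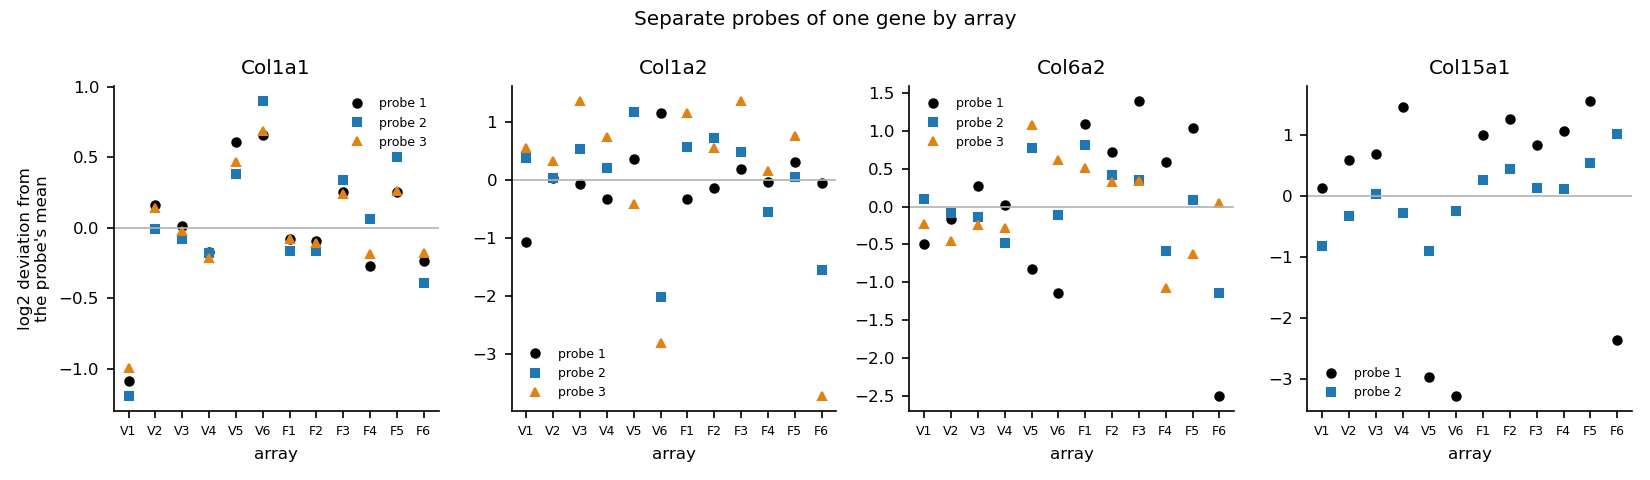
Log2 deviation of each kept probe from its own mean (vertical axes, scaled separately) on the 12 arrays (V vehicle, F FAKi) for 4 collagen genes, probe 1 being the one used. The 3 Col1a1 probes move together, while those of Col1a2, Col6a2 and Col15a1 part on V5, V6 or F6.

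Scores of the classes were taken on each array, each the mean over members of the deviation from the gene's own mean. A shift of a whole array enters these scores. The median deviation over all genes with 12 values was 0.45 in vehicle 6, -0.25 in vehicle 1, -0.08 in vehicle 5 and 0.27 in FAKi 6. On the other arrays it lay between -0.20 (vehicle 3) and 0.06 (FAKi 4). The part of such shifts in the class scores was not tested. The fibrillar score ranged from -0.53 (vehicle 1) through a median of -0.10 to 0.52 (vehicle 5) in vehicle, and from -0.33 (FAKi 4) through -0.02 to 0.28 (FAKi 1) in FAKi tumours. Vehicles 5 and 6 were both high. The type IV score ranged from -0.29 through -0.11 to 0.33 in vehicle and from -0.40 (FAKi 6) through 0.07 to 0.37 (FAKi 2) in FAKi tumours. The score of other types ranged from -0.37 through -0.11 to 0.48 in vehicle and from -0.27 through 0.12 to 0.15 in FAKi tumours. In all 3 classes the groups overlap, and vehicle 1 is the lowest vehicle array.

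Under quantile normalisation the fibrillar score of vehicle 1 was -0.25 and that of vehicle 6 was 0.14, while vehicle 5 stayed at 0.53. The score of 8 fibroblast markers, from -1.03 to 1.17 in vehicle and from -0.64 to 0.84 in FAKi tumours, was likewise lowest in vehicle 1 and highest in vehicle 5. This order was not particular to fibroblast markers. Among vehicle tumours, vehicle 1 was also lowest and vehicle 5 highest for leukocyte markers (-0.737 and 0.654) and endothelial markers (-0.753 and 0.989). The same held for genes that process collagen (-0.257 and 0.579) and for collagen receptors (-0.199 and 0.921). The remaining lists did not have both extremes, and epithelium markers were lowest in vehicle 5 (-1.15). The part of the fibroblast score in the fibrillar score was not tested.

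**Figure D4:**
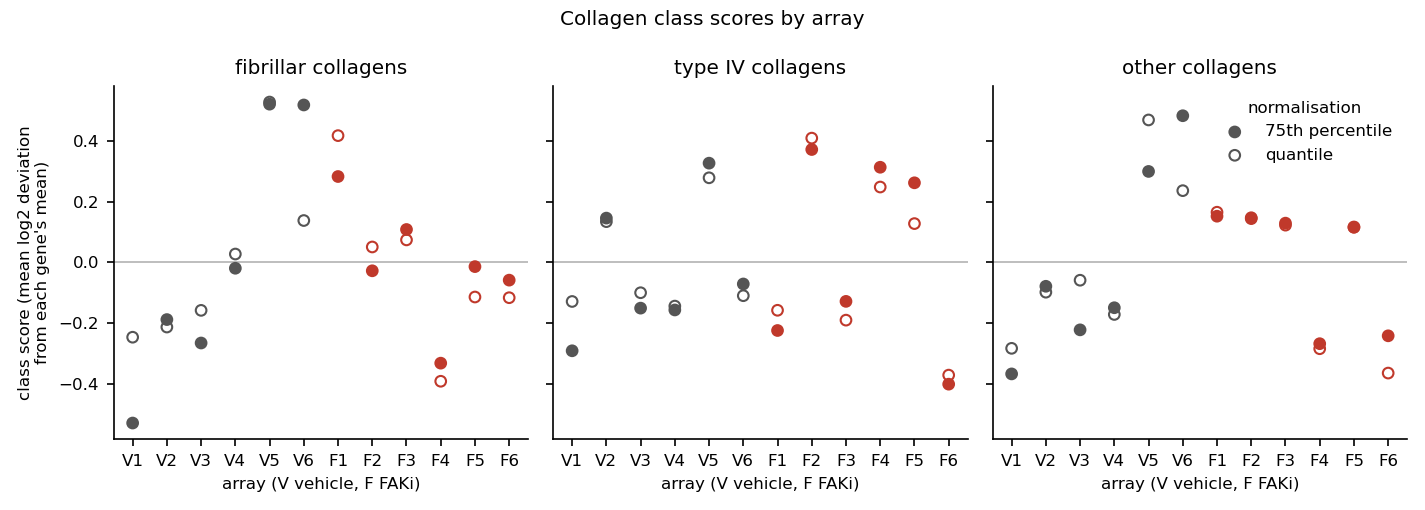
Class score of fibrillar, type IV and other collagens (vertical axis, log2) on each array (V vehicle, F FAKi); filled points use the 75th percentile and open points quantile normalisation. The fibrillar score of V1 moves from -0.53 to -0.25 and that of V6 from 0.52 to 0.14 between the normalisations, and the groups overlap in each panel.

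Chains that assemble into 1 trimer could be compared across tumours for 10 of the 12 pairs listed, with both chains measured. After Benjamini-Hochberg adjustment over the 10, 4 pairs passed 0.05, and 2 did when vehicle 5 or FAKi 1 was left out. The share of other gene pairs that would pass on these arrays was not computed. The count is therefore not read as a trait of chains of 1 trimer. Col4a1 and Col4a2 had r = 0.94 over 12 tumours (Spearman rho 0.97, permutation p = 1e-05, the smallest these permutations can give, adjusted 0.0001). The relation stood at 0.90 without the 2 tumours farthest from the median, at 0.86 in vehicle (exact p = 0.0333, n = 6), at 0.99 in FAKi tumours (exact p = 0.00139, n = 6) and at 0.93 with quantile normalisation. Within the slides it was not computed, for the reason given above.

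Col4a1 and Col4a2 start from facing sites. In the RefSeq promoter windows of GRCm38.p6, the start of Col4a1 on the minus strand is at base 11312826 of chromosome 8 and that of Col4a2 on the plus strand at base 11312805, so that 22 bases belong to both transcripts. The windows, 250 bases before to 50 after each start, share chr8:11312777-11312854. These 78 bases lie in transcribed sequence and are not printed. The arrangement is a description and was not tied to the correlation by a test.

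Col1a1 and Col1a2, which form type I collagen as a trimer, had r = 0.91 (rho 0.80, permutation p = 0.00012, adjusted 0.0006). In vehicle alone r was 0.94 (exact p = 0.00417, n = 6) and in FAKi alone 0.69 (exact p = 0.132, n = 6). It was 0.80 without the 2 farthest tumours and 0.80 with quantile normalisation (adjusted permutation p 0.00413), but -0.005 when the mean of each gene's probes was used, and the Col1a2 probes part as described. Each pair shares the subtracted 75th percentile, whose part in r was not tested beyond the quantile values. The Col1a2 promoter is shown for the pair. The 120 bases before the start, chr6:4505498-4505617 on the plus strand (GRCm38.p6), carry CCAAT, in capitals, 109 bases before the start.
Col1a2 promoter: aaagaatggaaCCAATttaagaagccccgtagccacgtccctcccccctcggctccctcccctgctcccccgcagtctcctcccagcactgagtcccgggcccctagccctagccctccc
Searched on both strands in windows of 300 bases, CCAAT (or ATTGG) was in 13 of 38 collagen windows (34.2%, 35 genes) and in 37.4% of all 32851 windows. TATAAA was in 13.2% against 13.6%, and GGGCGG in 60.5% against 35.7%. A match is a description of these letters only.

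The other passing pairs were Col8a1 with Col8a2 (r = 0.72, rho 0.61, permutation p = 0.00718, adjusted 0.0239) and Col6a1 with Col6a3 (r = 0.69, rho 0.73, permutation p = 0.0143, adjusted 0.0358). Col8a1 with Col8a2 fell to r = 0.45 without the 2 farthest tumours (permutation p = 0.187), so it rests on those. Col6a1 with Col6a3 had r = 0.83 there, but it missed 0.05 in 8 of 12 fits without 1 array and in all 4 other settings run, 0.0667 being its adjusted permutation p with quantile normalisation.

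Col6a1 with Col6a2 had r = 0.32 over 12 tumours (permutation p = 0.314), with -0.52 in vehicle and 0.88 in FAKi tumours (exact p = 0.293 and 0.00139, n = 6 each), and 0.86 without vehicle 5, vehicle 6 and FAKi 6. The difference between the groups' r was not tested. The other 5 pairs had r between -0.22 (Col9a2 with Col9a3) and 0.38 (Col9a1 with Col9a2), with adjusted permutation p from 0.434 to 0.888. With quantile normalisation, Col9a2 with Col9a3 passed in the negative direction instead (r = -0.74, adjusted permutation p 0.0152), and it did so in the authors' deposited table too (r = -0.74, adjusted permutation p 0.0168).

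**Figure D5:**
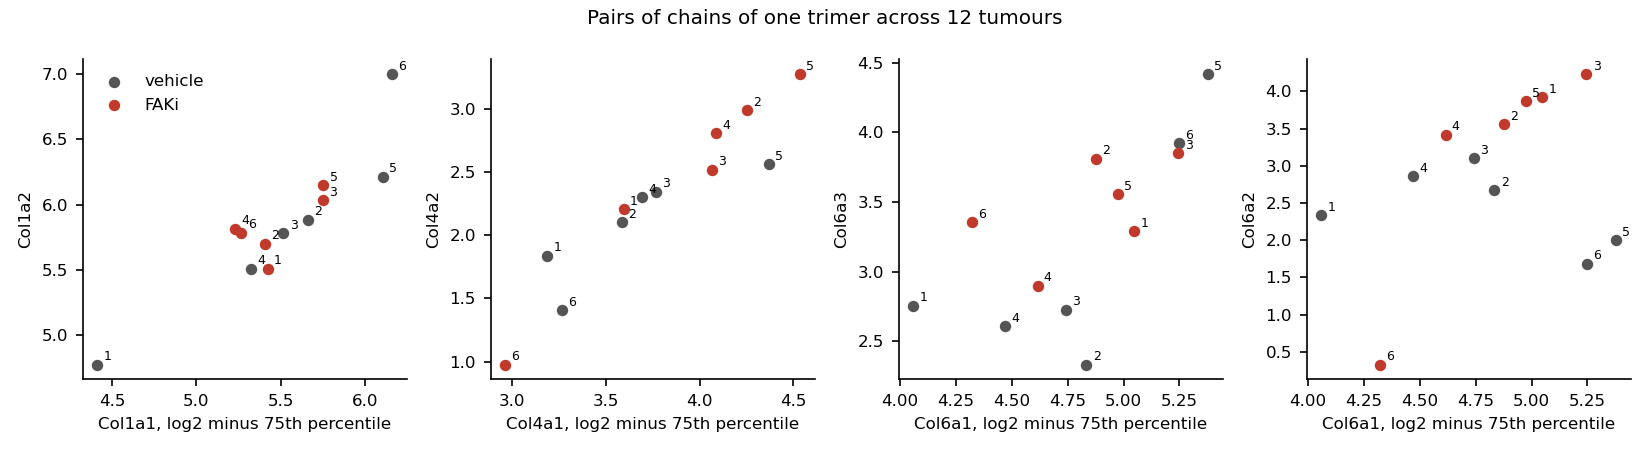
Log2 signal minus the 75th percentile of pairs of chains, 1 point a tumour with its replicate number, grey for vehicle and red for FAKi. Col4a1 and Col4a2 lie close to a line (r = 0.94), and in the last panel vehicle 5, vehicle 6 and FAKi 6 lie below the others.

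The 3 arrays that stand apart moved the collagen values. Without them, an alternative chosen after seeing the data, 4 vehicle and 5 FAKi tumours remained, and 10 of 37 collagens had an unadjusted p under 0.05, against 17.6% of all genes, with none called and a smallest adjusted p of 0.0917 in limma. The 10 were Col4a1, Col4a2, Col5a1, Col5a3, Col6a2, Col6a3, Col9a3, Col14a1, Col23a1 and Col24a1. Values above 0 were found for 27 of 37, and the median difference was 0.36, against 0.15 over all genes. The fibrillar median was 0.35, that of type IV 0.55 and that of other types 0.37. Col6a2 differed by 1.06 (SE 0.23) and Col1a1 by 0.28 (SE 0.27).

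The genes that make, bind and break collagen gave no call either. Of 24 measured genes of 25 that process collagen, 10 were above and 14 below 0, with none called and a median of -0.03. The smallest p values were those of Loxl4, a lysyl oxidase that forms crosslinks (-1.01, SE 0.48), and P4ha2, a prolyl hydroxylase subunit (-0.51, SE 0.27). Of 9 measured of 10 collagen receptors, 2 were above and 7 below 0 (median -0.11), and the smallest p values were those of the integrin chains Itga11 (-0.80, SE 0.39) and Itga10 (-0.78, SE 0.76). Of 8 measured of 9 collagen-degrading genes, 6 were above and 2 below 0 (median 0.21), led by the matrix metalloproteinases Mmp13 (0.47, SE 0.49) and Mmp14 (0.53, SE 0.56). All these adjusted p were 0.999 in limma.

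Markers of other tissues also varied between tumours. Of 4 adipocyte markers, 4 had a lower FAKi mean (median -1.48), the largest median of any list tested. Their score ranged from -2.53 to 3.32 in vehicle and from -2.73 to 1.64 in FAKi tumours, and that of 4 skeletal muscle markers (median 0.30) from -1.93 to 1.75 and from -1.46 to 4.04. Of 6 acinar markers, 6 had a higher FAKi mean (median 0.44). Of the remaining lists, median differences were 0.12 (fibroblast, 8 genes), 0.09 (smooth muscle and pericyte, 6), 0.07 (epithelium, 6), 0.03 (leukocyte, 5), -0.17 (cartilage, 3 of 5 measured) and 0.06 (Schwann cell, 4), with none called in any list. The part of these tissues in the collagen values was not tested.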

How the data were processed

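Total RNA of 12 tumours was labelled with Cy5 and hybridised to Agilent mouse arrays in 1 colour, per the labels' protocols. The deposited scanner files hold the processed signal intensity of each spot, written by Feature Extraction 11.5.1.1 per the file headers, and the mean and background intensities, used for an alternative. The authors' deposited table holds log2 values made with limma per the submitters' processing notes; its scale and centring are not stated, and it served as an alternative only. Here, spots flagged as outliers were dropped, spots of a probe averaged, and log2 intensities scaled to each array's 75th percentile. Probes well above background on at least 6 of 12 arrays were kept, and the brightest stood for its gene. limma 3.58.1 (R 4.3.3) compared 6 FAKi with 6 vehicle arrays over all genes, with Benjamini-Hochberg adjustment at 0.05. Genes were named by accession or symbol through RefSeq; all 91 collagen probes kept their array name. Nothing in the labels says that samples came from separate mice, so p-values measure only the spread between these samples, which may be technical; the number of arrays limits the precision. Sequences are RefSeq's (promoters) or the array's (probes).

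The members and lists were chosen with earlier results of these data known. The fit was tested on simulated data. Values by tumour are given for Col1a1, Col1a2, Col3a1, Col4a1, Col4a2 and Col6a1, for the 3 genes of smallest p in each class, and for the gene of largest SD in each. Correlations used 100000 permutations, or all orders within a group. Arrays lay on 5 slides, and only slides 1 and 4 held both groups. A fit with slide as a fixed block therefore takes its difference from those slides alone. The FAKi 6 file lacks the annotation columns of the others and was named through them by probe.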

Additional observations from a re-analysis of the deposited data

Results flagged for a closer look

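Over the 15 named chains and the 3 class scores, 36 groups of 6 tumours were looked at for a tumour far from the rest, and 1 was found; chance gives about 1 in 20 such groups. Col15a1 in FAKi tumour 6 was -6.26, and the other 5 FAKi tumours lay between -3.07 and -2.34, so the gap was 0.815 of the group's range. The second Col15a1 probe placed the same tumour highest of its group, at -4.10.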

How the results depend on the processing

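No collagen was called under any of the settings run, planned or added. Collagens at an unadjusted p under 0.05 numbered 2 of 44 without a filter on dim probes, against 4.2% of all genes. With slide as a fixed block they numbered 3 of 37, against 1.81%, and with array weights 6, against 18.4%. Without vehicle 5, vehicle 6 and FAKi 6, an alternative chosen after seeing the data, there were 10, against 17.6%. When 1 array was left out there were 0 to 3. The 3 came without vehicle 6, against 13.8% of all genes, and 2 without FAKi 6, against 6.16%. There were 0 without vehicle 2, 4 or 5 or FAKi 2, 3 or 4. Over all genes, array weights called 2 and leaving out 1 array called 0 to 3 (the 3 without FAKi 1). The fibrillar median moved to 0.35, that of type IV to 0.55 and that of other types to 0.37 without the 3 arrays; leaving out 1 array gave -0.19 to 0.20 (fibrillar), 0.15 to 0.46 (type IV) and -0.09 to 0.32 (other).

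Of 15 named chains, 6 kept their sign in every fit over genes, those being Col4a1, Col4a2, Col4a5, Col7a1, Col15a1 and Col19a1. Col19a1 was 0.012 with slide as a fixed block, however, and its second probe alone gave -0.003. Within slide 4, Col19a1 (-0.61) and Col7a1 (0.07) turned. The fit with slide as a fixed block takes its difference from slides 1 and 4 alone, each with 1 FAKi array. In that fit the sign turned for Col3a1 (-0.21), Col5a1 (-0.34), Col5a3 (-0.045), Col6a1 (-0.039), Col8a2 (0.074) and Col27a1 (0.23). With array weights it turned for Col1a1 (0.089) and Col1a2 (0.20), and without the 3 arrays for the same genes (0.28 and 0.35). It turned for Col5a1 with median centring (-0.013), for Col11a2 with the mean of its probes (-0.089), and for Col6a1 with quantile normalisation (-0.0030) and in the authors' deposited table (-0.0072). Leaving out 1 array gave -0.28 to 0.068 for Col1a1, -0.24 to 0.20 for Col1a2, -0.19 to 0.30 for Col3a1, -0.20 to 0.35 for Col5a1 and -0.088 to 0.18 for Col6a1. The causes were not tested.

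Of the chain pairs, 2 to 4 passed when 1 array was left out (2 without vehicle 5 or FAKi 1) and 3 with the mean of probes. The pairs that passed were not the same in each setting: Col6a1 with Col6a3 failed and Col9a2 with Col9a3 passed (r = -0.74) with quantile normalisation and in the authors' deposited table. With the mean of probes, r turned to -0.0047 for Col1a1 with Col1a2, -0.27 for Col5a1 with Col5a2 and 0.68 for Col6a2 with Col6a3, which was 0.84 without the 3 arrays. Leaving out 1 array gave -0.29 to 0.42 for Col5a1 with Col5a2, -0.18 to 0.10 for Col6a2 with Col6a3 and -0.13 to 0.33 for Col11a1 with Col11a2.

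Whether replicate numbers pair the samples could not be settled from these values. Same-numbered deviations correlated between -0.117 and 0.485, and 2 of 6 correlated best with their own number. The 0.485 was that of replicate 6, whose arrays in both groups stood apart from the others. With the replicate block, 1 collagen had an unadjusted p under 0.05, against 6.09% of all genes, and 0 were called. Signal close to background limits Col15a1 and Col19a1, each with vehicle arrays not well above it.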
